A study of Mus musculus with 8 samples.

Results

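Immediate early genes are switched on within minutes of a stimulus, before any new protein is made, and their mRNAs are short-lived. In epithelial tissue, enzymatic digestion and sorting are known to induce many of them. Signals that pass through MAP kinases act on factors already bound at their promoters, among them the serum response factor, its ternary complex partners and CREB. The products then work at several levels: Fos and Jun proteins pair into the AP-1 transcription factor, Egr1 and Atf3 bind DNA themselves, and Zfp36 and Dusp1 shut the response off by removing mRNAs and by dephosphorylating MAP kinases.

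The 10 genes described here are Fos, Fosb, Jun, Junb, Jund, Egr1, Atf3, Ier2, Zfp36 and Dusp1, chosen by gene symbol on the array with the brightest probe set per gene, out of 19505 named genes measured. All 10 were found. The arrays hold luminal mammary cells sorted from mice on day 15 of pregnancy, 4 labelled a3a6KO, for the integrin chains alpha 3 and alpha 6 (Itga3 and Itga6), and 4 labelled control. The a3a6KO titles begin with DKO yet also contain Ctrl, and the groups follow the subtype and source labels. All 8 samples went through enzymatic digestion, staining and flow sorting as fresh tissue, and 500 pg of RNA from each was amplified. The labels do not name the Cre line, the deleted exons, the strain or the age of the mice. No undissociated tissue was analysed here, so the levels cannot be set against those of the intact gland, and the genes are called immediate early genes by name only.

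Values are log2 RMA values, and a gene is called above background on an array where it exceeded the 95th percentile of that array's intron control probe sets. The samples carried the markers of their label: all 11 luminal markers, such as the keratin gene Krt8 at 10.5 ± 0.14 in a3a6KO and 10.4 ± 0.19 in control (SD, n = 4 each), were above background on every array. So were 2 of 13 basal markers, the keratin gene Krt14 among them, so the luminal markers do not show that basal cells were absent. Of the 11 luminal markers, 3 had lower and 8 higher means in a3a6KO (median difference 0.11), with 0 passing in limma. Among the lower, Muc1 differed by -0.745 (SE 0.256) without overlap of the groups, as in 2.94% of all genes, and Elf5 by -0.30 (SE 0.213) with overlap. The targeted gene Itga6 stood at 5.95, 3.65, 8.21 and 7.85 in a3a6KO 1 to 4, against 8.83, 8.73, 9.14 and 8.80 in control 1 to 4. Itga3 stood at 5.11, 4.34, 5.55 and 5.60 in a3a6KO and at 6.72, 6.30, 5.37 and 7.27 in control. Itga6 was thus lower on every a3a6KO array, least so on a3a6KO 3 and 4, and Itga3 overlapped between the groups. Itga6 exceeded background on 6 of the 8 arrays, all but a3a6KO 1 and 2, and Itga3 on control 4 alone, so the size of the Itga3 difference is uncertain. All 8 milk genes had lower means in a3a6KO, with a median difference of -0.24 and 0 passing in limma, among them the whey protein genes Lalba (-0.74, SE 0.306) and Wap (-0.59, SE 0.258). These are samples of many cells, in which fewer cells of a type and less RNA per cell cannot be told apart.

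The promoters of these genes are shown for the sequence elements through which the known signals act. RefSeq's promoter table (GRCm38.p6, from 250 bases before the start of each gene to 50 after it) matched 8 of the 10 genes by symbol, all but Egr1 and Ier2. It holds 32851 promoters of 27025 genes, and only the first one listed for each of the 8 was searched. Each stretch below lies before the start, reads 5′ to 3′ on the gene's strand, and has in capitals a TGACG core of the cAMP response element, the whole element in Dusp1, or a CArG box, the site of the serum response factor, in Zfp36. In Atf3 the core lies on the other strand and therefore reads CGTCA.
Fos (chr12:85473799-85473853, plus strand): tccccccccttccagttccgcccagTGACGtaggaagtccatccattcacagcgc
Fosb (chr7:19310076-19310130, minus strand): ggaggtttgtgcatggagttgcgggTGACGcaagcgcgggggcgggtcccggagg
Junb (chr8:84978825-84978879, minus strand): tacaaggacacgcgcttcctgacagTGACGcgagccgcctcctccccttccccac
Atf3 (chr1:191183334-191183365, minus strand): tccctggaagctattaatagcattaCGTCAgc
Dusp1 (chr17:26508583-26508640, minus strand): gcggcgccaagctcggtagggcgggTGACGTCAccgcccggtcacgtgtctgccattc
Zfp36 (chr7:28379252-28379311, minus strand): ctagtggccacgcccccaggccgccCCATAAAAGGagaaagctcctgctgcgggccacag

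The TGACG core, searched on both strands and chosen only after the sequences had been read, occurred in 5 of the 8 promoters (Fos, Fosb, Junb, Atf3 and Dusp1) and in 20.8% of all 32851 promoters of the same length. The full element TGACGTCA, which contains that core, occurred in Dusp1 alone among the 8 and in 1.79% of all promoters. Within this window the CArG box occurred in Zfp36 alone, at bases 58 to 49 before the start, against 1.63% of all promoters. Sites farther than 250 bases before the start, any at a further listed start of the same gene, and any in Egr1 and Ier2, were not searched. A motif not found here may therefore still lie outside the window. The EGR site GCGGGGGCG was found in Fosb and Zfp36 (2.91% of all), the GC box GGGCGG in 6 of the 8 (35.7% of all), and the letters of the TATA box, TATAAA, in Fos and Junb (13.6% of all). Counted from the start as 0, the TATAAA of Fos lies at -33 to -28. That of Junb lies at 0 to 5, so not before the start. In Fosb the GC box overlaps the EGR site, and in Zfp36 a GC box on the other strand shares a base with the CArG box. The AP-1 site TGANTCA was found in 0 of the 8 windows and in 7.81% of all. A match is a description of letters in the window, and was not linked to any value below.

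All 10 genes gave clear signal. Each was above background on all 8 arrays, where 8.25% of the named genes were. The groups overlapped in every one of the 10, against 2.94% of all genes whose groups did not overlap.

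**Figure D1:**
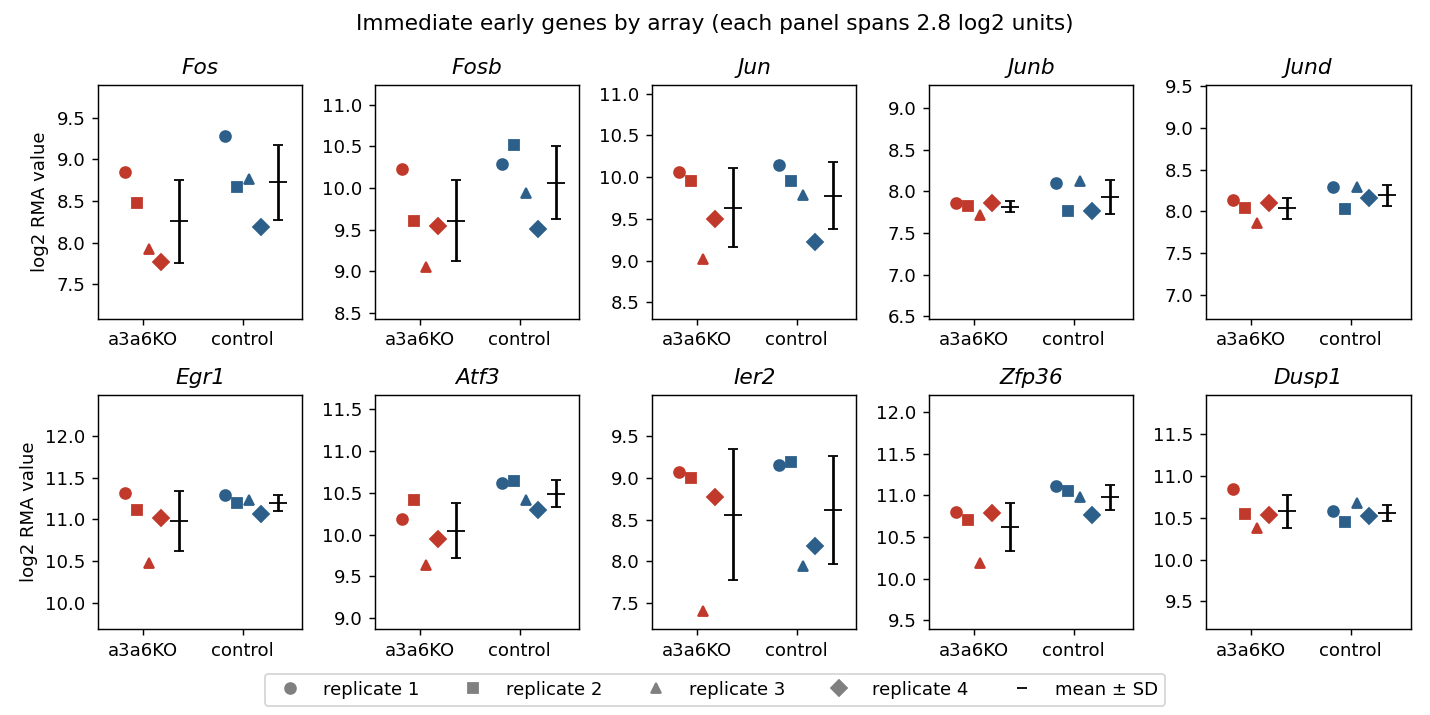
Log2 RMA values of the 10 genes on each array, a3a6KO left and control right, with the mean and SD of each group beside the points (n = 4). Each panel spans the same height, so that wide scatter (Ier2) and narrow scatter (Junb, Jund, Dusp1) can be seen, and a3a6KO 3 (triangle) is the lowest a3a6KO array in every panel but that of Fos.

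Of the Fos subunits of AP-1, Fos itself stood at 8.85, 8.48, 7.93 and 7.77 in a3a6KO 1 to 4, against 9.28, 8.67, 8.76 and 8.19 in control 1 to 4. a3a6KO 3 and 4 lay below every control and the other two within the control range, and control 4 was the lowest control. The difference was -0.47 (SE 0.301), 0.72 times the control level, with a 95% interval of 0.45 to 1.16 times, and was -0.28 without control 1 and -0.31 without a3a6KO 4. Fosb, a close relative of Fos, stood at 10.23, 9.61, 9.05 and 9.54 in a3a6KO, against 10.29, 10.51, 9.94 and 9.51 in control. Here a3a6KO 3 alone lay below all controls. The difference was -0.46 (SE 0.294), and -0.27 without a3a6KO 3. Neither gene passed in limma (adjusted p = 0.948 for each; exact permutation p = 0.2 for Fos and 0.229 for Fosb, two-sided).

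The Jun subunits, which pair with Fos proteins or with each other, differed less. Jun stood at 10.06, 9.95, 9.02 and 9.50 in a3a6KO 1 to 4, against 10.15, 9.95, 9.79 and 9.22 in control 1 to 4. Most of its scatter lay within the groups, with a3a6KO 3 and control 4 low in each. Its difference was -0.15 (SE 0.283), and 0.06 without a3a6KO 3. Junb, at 7.86, 7.82, 7.72 and 7.86 in a3a6KO and 8.10, 7.76, 8.12 and 7.76 in control, moved over 0.40 log2 units on the 8 arrays. Jund, known for steadier expression than its relatives, moved over 0.43, with 8.14, 8.04, 7.86 and 8.10 in a3a6KO and 8.29, 8.03, 8.29 and 8.16 in control. Both were a little lower on average in a3a6KO, Junb by -0.12 (SE 0.159) and Jund by -0.16 (SE 0.152). The Junb difference was -0.06 without control 3 and the Jund difference -0.10 without a3a6KO 3. The adjusted p-values of the 3 genes in limma were 0.978, 0.964 and 0.95.

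Egr1 and Atf3 are transcription factors of their own kind, a zinc finger activator and a stress-induced relative of CREB that often represses. Egr1 stood at 11.32, 11.11, 10.48 and 11.01 in a3a6KO 1 to 4, against 11.29, 11.19, 11.23 and 11.06 in control 1 to 4. The controls lay close together, and only a3a6KO 3 lay well outside them. The Egr1 difference of -0.21 (SE 0.200, limma adjusted p = 0.95) was -0.05 without that array. Atf3 stood at 10.19, 10.41, 9.64 and 9.95 in a3a6KO, against 10.62, 10.64, 10.41 and 10.30 in control. Its a3a6KO values lay below every control on 3 of 4 arrays, and a3a6KO 2 equalled control 3. The Atf3 difference was -0.45 (SE 0.200), 0.73 times the control level with a 95% interval of -0.90 to 0.01 on the log2 scale, and had the smallest p of the 10 genes (0.0523 in limma before adjustment, 0.944 after it, exact permutation p = 0.0857).

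Ier2, an early response gene of the nucleus, varied most. It stood at 9.07, 9.00, 7.40 and 8.77 in a3a6KO 1 to 4, against 9.16, 9.19, 7.95 and 8.18 in control 1 to 4. In both groups some arrays were near 9 and others clearly below, and the range over the 8 arrays was 3.46-fold. Its difference was -0.06 (SE 0.430) and was 0.33 without a3a6KO 3, so that its direction rests on single arrays. The limma adjusted p was 0.993.

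The genes that end the response differed in their values. Zfp36, which binds AU-rich mRNAs and hastens their decay, stood at 10.80, 10.71, 10.19 and 10.79 in a3a6KO 1 to 4, against 11.11, 11.05, 10.98 and 10.76 in control 1 to 4. Arrays a3a6KO 2 and 3 lay below every control, and a3a6KO 1 and 4 between control 4 and the other controls. The Zfp36 difference was -0.35 (SE 0.188), 0.78 times the control level (limma adjusted p = 0.944, exact permutation p = 0.0857), and was -0.21 without a3a6KO 3. Dusp1, the phosphatase that inactivates MAP kinases, stood at 10.85, 10.55, 10.38 and 10.54 in a3a6KO, against 10.58, 10.45, 10.68 and 10.52 in control. Its values were spread around the controls on both sides, and its difference was 0.02 (SE 0.160), with an interval of 0.79 to 1.30 times the control level, and -0.07 without a3a6KO 1 and -0.01 without control 2.

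**Figure D2:**
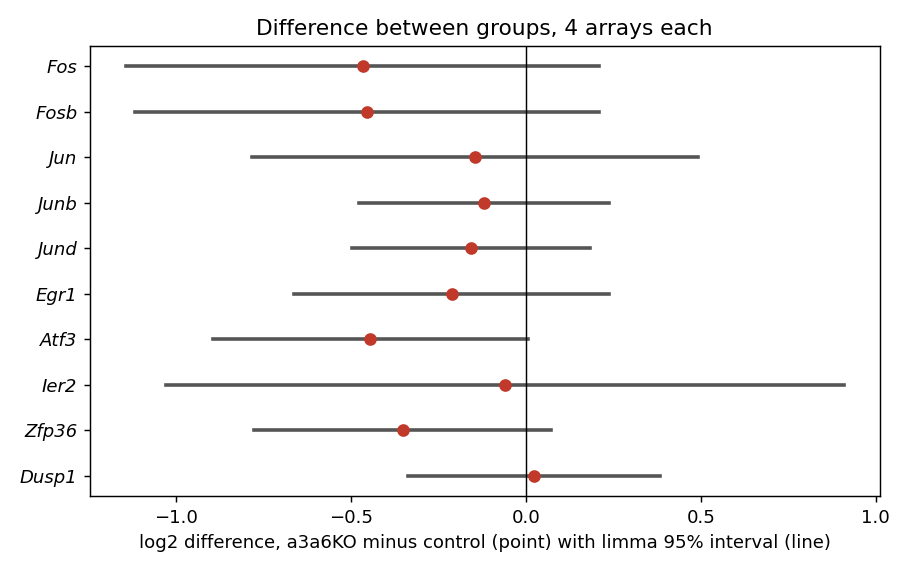
Log2 difference of a3a6KO minus control for each gene (point) with the 95% interval of the limma fit (line), n = 4 arrays per group. The interval of each gene includes 0, and 9 of the 10 points lie below it.

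Between the groups, 9 of the 10 genes had a lower mean in a3a6KO, with a median difference of -0.19, and 0 passed the threshold of 0.05 in limma, adjusted over all genes. Without a3a6KO 3, 7 of the 10 had a lower mean and the median difference was -0.09. Of all genes 50.4% had a lower mean in a3a6KO, the median difference was -0.003, and 0 of 19505 passed (0%), while 1000 (5.13%) had an unadjusted p under 0.05. Of the 10 genes 0 had an unadjusted p under 0.05 in that fit, 2 did with an intensity trend and robust prior, 2 with the replicate number as a block, and 1 in each of the fits without a3a6KO 1, without a3a6KO 2 and without control 4. Because the 10 genes varied together from array to array, their 9 lower means are not 9 separate observations. The exact permutation test of 4 against 4 cannot go below p = 0.0286, and none of the 10 genes reached it.

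The genes varied together over the 8 arrays, though not all alike within the controls. Control 3 was the lowest control in Ier2 (7.95) and the highest in Junb (8.12) and Dusp1 (10.68). Array a3a6KO 3 was the lowest of the 8 in 9 of the 10 genes and among the lowest 2 in all 10. At the other end, control 1 was among the highest 2 arrays in 9 of the 10 genes. The mean deviation, that is the log2 value less the mean of the same gene on all arrays, averaged over the 10 genes, was 0.20, 0.04, -0.57 and -0.15 in a3a6KO 1 to 4 and 0.35, 0.21, 0.08 and -0.17 in control 1 to 4. Arrays of both groups thus lay at both ends of the range, with a3a6KO 3 apart from the rest.

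**Figure D3:**
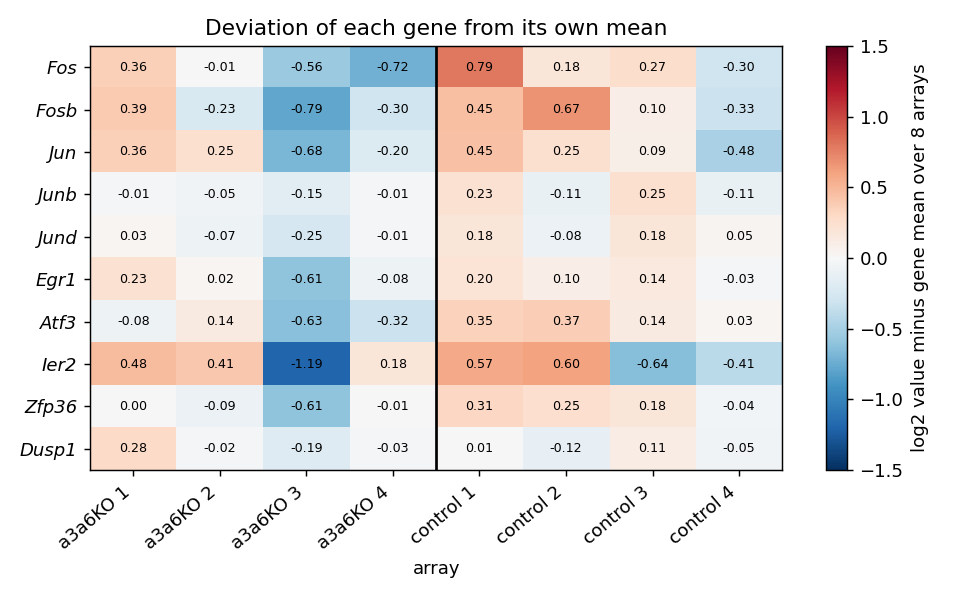
Each cell gives the log2 value of a gene (row) on an array (column) minus the mean of that gene over the 8 arrays, a3a6KO left of the line and control right of it. The column of a3a6KO 3 is below the mean in all 10 genes and that of control 1 is above the mean in all 10.

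Over the 45 pairs of these genes, Pearson's r across the 8 arrays was above 0 in all 45, from 0.14 to 0.90 with a median of 0.69. For comparison, the median over all pairs of the 1609 genes above background on every array was 0.01, with 50.7% of pairs above 0. Taken as deviations from the group means, the 45 pairs had a median of 0.68 and all 45 stayed above 0. These deviations pool both groups, so a3a6KO 3 weighs on them, and neither group was correlated alone. Without a3a6KO 3 the median was 0.49 and 40 of the 45 pairs were above 0. All pairs share the same 8 arrays and are not independent of each other.

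By exact permutation over all pairings of the arrays (two-sided), 21 of the 45 pairs had p under 0.05 for Pearson's r, and 5 passed after Benjamini-Hochberg adjustment over the 45. For Spearman's rho, 15 had p under 0.05 and 0 passed after adjustment. Among the 5, the pair made of AP-1 subunits was Junb with Jund, at r = 0.85 and rho = 0.80 (exact p = 0.00496, adjusted 0.0446; rho exact p = 0.0221). With the 2 arrays farthest from the median of Junb left out, r was 0.63. Jun and Egr1 gave r = 0.85 and rho = 0.87 (exact p = 0.00223, adjusted 0.0446; rho exact p = 0.00724), and r = 0.82 without the 2 arrays farthest from the median of Jun. These relations kept their sign without the outermost arrays.

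Fosb was tied to Egr1 at r = 0.84 and rho = 0.81 (exact p = 0.00243, adjusted 0.0446; rho exact p = 0.0218), with r = 0.97 on the 6 arrays nearest the median of Fosb. Fosb and the decay factor Zfp36 gave r = 0.86 and rho = 0.88 (exact p = 0.00402, adjusted 0.0446; rho exact p = 0.00724), and 0.70 on the same 6 arrays. Atf3 and Zfp36 gave r = 0.88 and rho = 0.72 (exact p = 0.00476, adjusted 0.0446; rho exact p = 0.0519), and 0.79 on the 6 arrays nearest the median of Atf3. The top r of all, 0.90 between Egr1 and Zfp36, had an exact p of 0.0115 and an adjusted p of 0.0566, and was 0.57 without a3a6KO 3. The classical AP-1 pair Fos and Jun reached r = 0.84 (exact p = 0.00952, adjusted 0.0566), and 0.81 without a3a6KO 3.

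The lowest r values came from pairs with Ier2 or Dusp1. Junb and Ier2 gave r = 0.14, Atf3 and Dusp1 r = 0.23, and Jund and Ier2 r = 0.30. Without a3a6KO 3 these turned to -0.24, -0.31 and -0.45. Set against the mean of the other 9 genes, Egr1 (r = 0.93), Jun (0.93), Fosb (0.90) and Zfp36 (0.89) followed it most closely and Dusp1 (0.53) and Junb (0.54) least. By Spearman's rho, Jund followed that mean least (0.40). The genes also differed in their spread. The residual SD was 0.72 for Ier2, 0.47 for Fos, 0.46 for Fosb and 0.44 for Jun, but 0.12 for Jund and 0.15 each for Junb and Dusp1, where the median of the other genes above background on every array was 0.30.

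**Figure D4:**
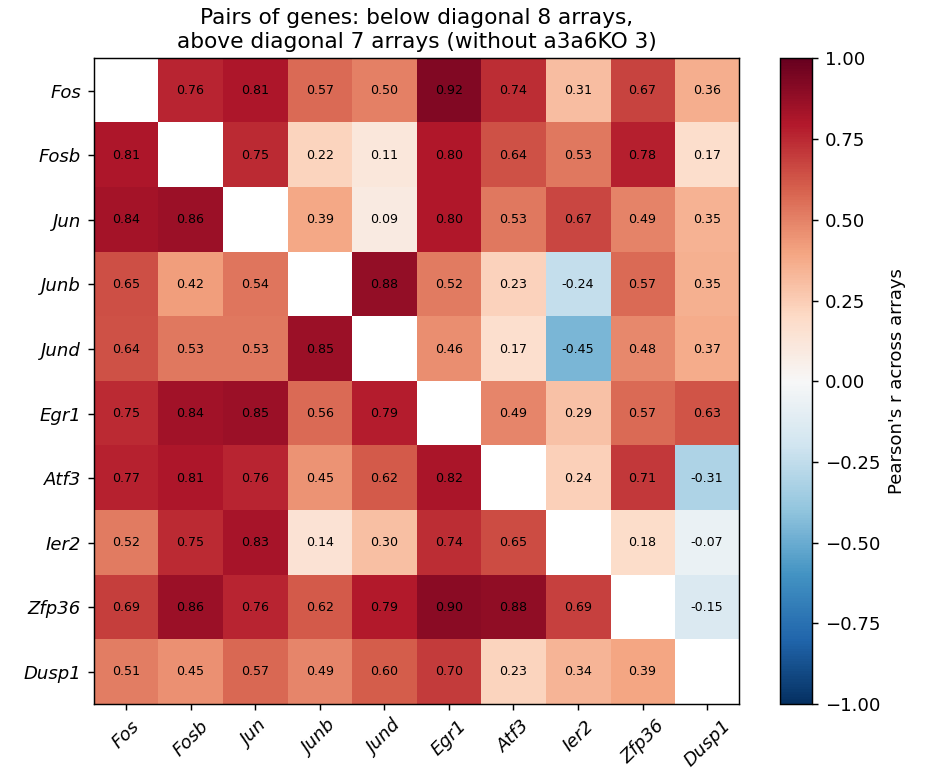
Pearson's r for each pair of genes, over all 8 arrays below the diagonal and over the 7 arrays other than a3a6KO 3 above it. Below the diagonal every value is above 0, and above it 5 pairs turn negative, all of them with Ier2 or Dusp1.

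The genes whose pattern was most like the mean of the 10, out of 1599 others above background on all 8 arrays and by Pearson's r over those arrays, were Golph3 (0.91), Psmd8 (0.90), Grina (0.88), Psmb9 (0.87), Btg2 (0.87), Trib1 (0.85), Anp32a (0.84), Zfp330 (0.84), Nfkbiz (0.83) and Ccn1 (0.83). Of these, Btg2, an antiproliferative gene, Trib1, a pseudokinase gene, Nfkbiz, a nuclear NF-kB cofactor, and Ccn1, a secreted matrix protein gene, are themselves on the lists of early response genes below. Ccn1, for instance, stood at 11.46, 11.08, 10.33 and 10.77 in a3a6KO 1 to 4, against 11.34, 11.07, 10.56 and 10.70 in control 1 to 4. Its lowest array was again a3a6KO 3, while its group means lay 0.01 apart. Without a3a6KO 3, r was 0.61 for Btg2, 0.72 for Trib1, 0.66 for Nfkbiz and 0.73 for Ccn1. For the genes not on those lists it was 0.97 for Zfp330, 0.84 for Golph3, 0.79 for Psmb9, 0.76 for Grina, 0.71 for Psmd8 and 0.57 for Anp32a.

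Other early response genes followed the 10 in part. Of 33 measured genes for early signalling and RNA regulation, 19 were above background on every array, and 7 of these 19 had r above 0.7 with the mean of the 10: Btg2, Nfkbia, Ppp1r15a, Trib1, Zfp36l2, Ccn1 and Plk2. Among the 1599 other genes above background on every array the share was 3.06%. Without a3a6KO 3 it was 6 of 19, against 2.81%, and these 6 were not all among the 7. Btg2 (0.61) and Ppp1r15a (0.54) then fell below 0.7, while Zfp36l1, at 0.66 on all 8 arrays, came to 0.81. In the a3a6KO comparison 21 of the 33 had lower and 12 higher means, with a median of -0.09 and 0 past the threshold in either direction. Its smallest p-values belonged to Btg2 (-0.60, SE 0.237), the stress genes Gadd45g (-0.76, SE 0.330) and Gadd45a (-0.67, SE 0.306), and the kinase gene Plk3 (-0.51, SE 0.264). Gadd45g exceeded background on 3 control arrays and on no a3a6KO array, so the size of its difference is uncertain. Btg2 stood at 9.40, 9.01, 8.37 and 9.25 in a3a6KO, against 9.85, 9.57, 9.57 and 9.44 in control, so its groups did not overlap, as in 2.94% of all genes.

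Of 16 other early transcription factors measured, 11 were above background on every array, and 1 of these 11, Nfkbiz, had r above 0.7 with the mean of the 10, against 3.06% of the other genes above background on every array. Hes1, above background on 6 arrays, had r = 0.81 and Nr4a1 r = 0.70, and without a3a6KO 3 these were 0.49 and 0.20. In the comparison 7 had lower and 9 higher means (median 0.08), 0 passing in either direction. Srf, the serum response factor that binds the CArG box, stood at 7.75, 7.60, 7.25 and 7.81 in a3a6KO 1 to 4, against 7.08, 6.60, 7.16 and 6.68 in control 1 to 4. All its a3a6KO values lay above all its control values, where 2.94% of all genes had groups that did not overlap in either direction. The Srf difference was 0.72 (SE 0.202), with an adjusted p of 0.944 in limma and no tie to the 10 genes (r = -0.09). The orphan receptor gene Nr4a2 likewise did not overlap, at 8.22, 8.63, 8.61 and 8.43 in a3a6KO and 7.68, 7.86, 7.95 and 8.19 in control (0.55, SE 0.177), and had r = -0.74 with the mean of the 10. Egr3, a relative of Egr1, differed by -0.66 (SE 0.254) and Klf10 by -0.44 (SE 0.285), with r of 0.15 and 0.17. Neither Srf, Nr4a2, Egr3 nor Klf10 passed.

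Among 12 measured other AP-1 family genes, 8 had lower and 4 higher means (median -0.06) and 0 passed. Fosl1 differed by 0.41 (SE 0.294), Batf3 by -0.29, Batf2 by 0.14 and Fosl2 by 0.09, and 0 of the 12 had r above 0.7 with the mean of the 10. Of the 12, 6 were above background on no array, Batf2 and Batf3 among them, and 4 were above it on every array, where 3.06% of the other genes had such an r. The upstream MAP kinase and SRF route, with 18 genes measured, had 7 lower and 11 higher means (median 0.04, 0 passing), and 13 of the 18 were above background on no array. Mapk9, a Jun kinase gene, differed by 0.87 (SE 0.301) and Creb1 by 0.41 (SE 0.176), both among these 13, so the sizes of their differences are uncertain. Rps6ka5, a kinase acting on CREB and chromatin, differed by 0.73 (SE 0.416). It exceeded background on a3a6KO 1 and 2 alone (7.05 and 6.97), so the size of that difference is uncertain as well.

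Of 12 measured heat shock genes, which stress of tissue handling can also raise, 3 had lower and 9 higher means in a3a6KO (median 0.17), and 0 passed, with Hspd1 at 0.26 (SE 0.193), Hspe1 at 0.20, Hspa1a at 0.22 and Hspa1b at 0.21. Their mean deviation was 0.19, 0.13, 0.02 and -0.14 in a3a6KO 1 to 4 and 0.18, 0.06, -0.23 and -0.22 in control 1 to 4. Array a3a6KO 3, lowest in the 10 early genes, lay near the middle here. Of the 10 heat shock genes above background on every array, 0 had r above 0.7 with the mean of the 10, against 3.06% of the other genes above background on every array. Without a3a6KO 3, 3 of the 10 did (Hspa1a, Hspa1b and Hsph1), against 2.81%. The median r of the 12 was 0.23, and 0.41 without a3a6KO 3.

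Several other measures moved with the shared level. The mean deviation of 9 endothelial markers was -0.12, -0.80, 0.97 and -0.15 in a3a6KO 1 to 4 and -0.51, -0.45, -0.29 and 1.37 in control 1 to 4, so that the arrays with the most endothelial marker signal in each group, a3a6KO 3 and control 4, were also the lowest of their group in the 10 genes. Of the 9 endothelial markers 0 were above background on every array, and Kdr, Tek, Tie1 and Vwf were above it on none. The median r of these markers with the mean of the 10 genes was -0.62, and -0.51 without a3a6KO 3. The 8 fibroblast markers, 7 of them above background on no array, had mean deviations of -0.26 to 0.61 in a3a6KO and -0.28 to 0.49 in control, again highest on a3a6KO 3 and control 4.

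Basal markers had mean deviations of -0.86 to 0.68 in a3a6KO, highest on a3a6KO 3, and of -0.25 to 1.25 in control, where control 4 was highest and control 2, high in the early genes, came next at 0.85. Of the 13, 2 were above background on every array, Krt14 among them, and 4 on none. All 13 had lower means in a3a6KO, with a median difference of -0.56 and 0 passing in limma. Trp63, the transcription factor gene of basal cells, differed by -2.43 (SE 0.641) with no overlap of the groups, as in 2.94% of all genes. Trp63 was above background on 1 array. Krt5, the keratin partner of Krt14, differed by -2.54 (SE 0.987) and was above background on 4 arrays. The basal keratin gene Krt14 stood at 6.97, 7.11, 8.87 and 8.11 in a3a6KO, against 7.62, 10.91, 10.20 and 8.72 in control. Leukocyte markers ranged from -0.25 to 0.04 in a3a6KO and -0.25 to 0.59 in control, with 6 of 8 above background on no array, and adipocyte markers from -0.21 to 0.27 and from -0.32 to 0.11, with 5 of 6. The a3a6KO arrays with the highest Itga6, 3 and 4, were the lowest of their group in the 10 genes.

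How well exon control sets were separated from intron control sets, as an area under the curve, came to 0.855, 0.859, 0.862 and 0.873 in a3a6KO 1 to 4 and 0.852, 0.865, 0.873 and 0.879 in control 1 to 4. Control 1 had the smallest area and the highest mean of the 10, and control 4 and a3a6KO 4 the largest areas and low means, while a3a6KO 3, lowest in the 10, had an area near the middle, and control 3 had nearly the area of a3a6KO 4 with a mean deviation of 0.08. The part of the cell markers, of the integrin level and of this array measure in the shared level of the early genes, and of the lower basal and milk gene means in their lower means in a3a6KO, was not tested.

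**Figure D5:**
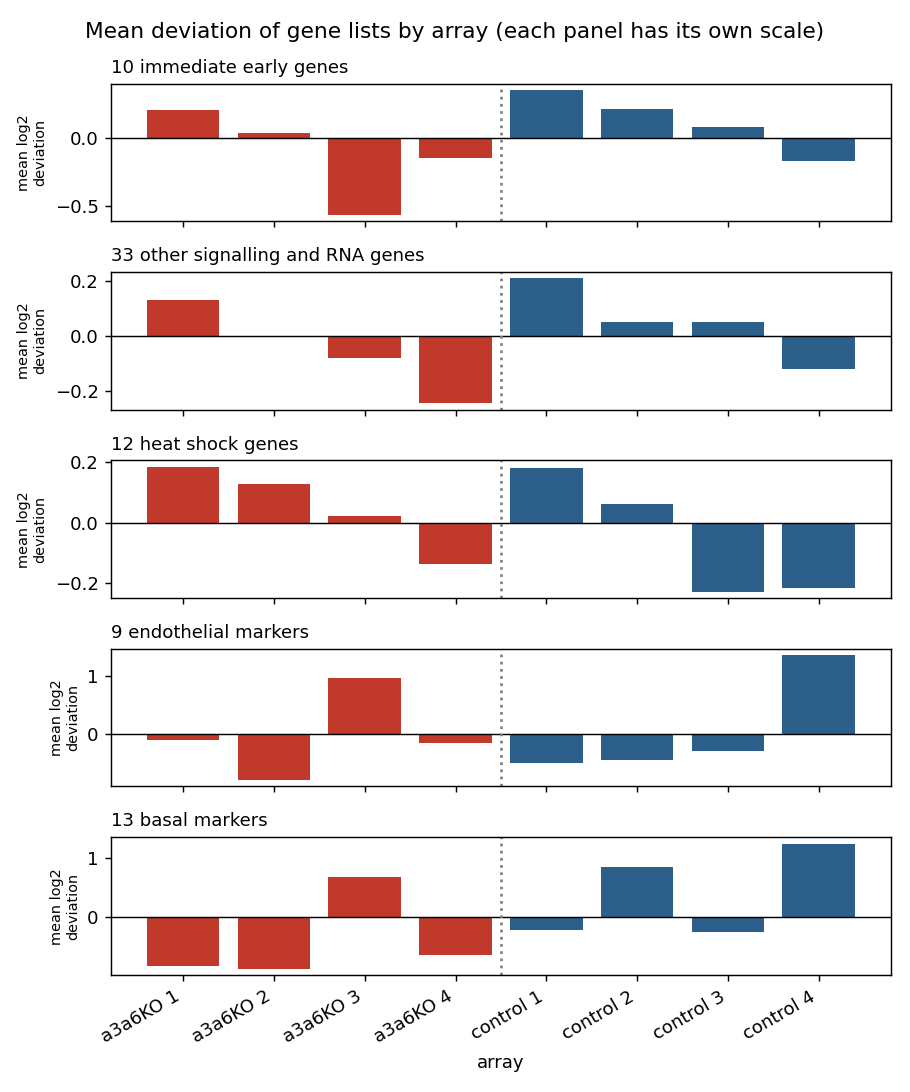
Mean deviation of each list on each array (log2 value less the mean of the same gene over 8 arrays, averaged over the list), a3a6KO left of the dotted line and control right of it; each panel has its own scale. The early genes are lowest on a3a6KO 3 (-0.57), where the endothelial and basal markers stand at 0.97 and 0.68 and the heat shock genes at 0.02.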

How the data were processed

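The deposited log2 values, 1 per probe set and array, were made by the authors with Affymetrix Expression Console and RMA, per the submitters' processing notes, with versions not given. RMA's quantile step makes arrays alike and would remove a shift shared by most genes. Values were used as deposited, from 0.96 to 13.28 over 28846 probe sets. GEO's platform annotation named 19572 sets with 1 symbol, 0 with several, and left 9274 unnamed; the brightest set was kept for each of 19505 genes. Arrays have no depth, so their number limits the precision. No pair of arrays was identical, with correlations over genes of 0.930 to 0.945 within and 0.924 to 0.946 between groups. The labels call the samples biological replicates without naming animals or batches.

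Groups were compared with limma 3.58.1 under R 4.3.3 (lmFit, then eBayes, with group as sole term and 8 arrays), Benjamini-Hochberg over all genes, threshold 0.05, and by exact permutation over 70 assignments. The code was tested on simulated data. Pairs were correlated over all 40320 pairings. The genes and lists were chosen with earlier results of these data known. Named are the 10 genes, Itga3 and Itga6, Krt8, Krt14 and Csn2, up to 4 genes of smallest p per list, and the 10 most alike genes without predicted ones; those named for r above 0.7 (Nr4a1 beside them), and Fosl2, were picked after their values were seen. Of 8 milk genes, 7 were above background on every array and 1 on none, and Csn2 stood at 12.4 ± 0.11 in a3a6KO and 12.5 ± 0.11 in control (SD, n = 4 each). Alternatives were a replicate block, single arrays left out, dim genes left out, probe sets averaged, a trended robust prior, array weights and median centring.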

Additional observations from a re-analysis of the deposited data

Results flagged for a closer look

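Zfp36 on a3a6KO 3 stood apart from the other 3 arrays of its group, at 10.19 against 10.71 to 10.80, a gap of 0.852 of the group's whole range. In all, 24 groups (12 genes, both groups each) were examined in this way, and chance marks about 1 group in 20.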

How the results depend on the processing

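Of the 10 genes 0 passed in the main comparison, with the replicate block, with dim genes left out (2774 genes tested), with probe sets averaged, with the trended robust prior, with array weights, with median centring and without any single array, and the same held for all genes. Of 140 recomputed differences, 134 kept their direction and 6 turned, all with an array left out: Jun ranged from -0.33 to 0.0592, Ier2 from -0.28 to 0.33 and Dusp1 from -0.0675 to 0.0892, the cause being the array left out in each case. The 134 include settings that could not turn a direction. The replicate block, dim genes left out, probe sets averaged and the trended robust prior returned the main difference of every one of the 10 genes. Only array weights, median centring and single arrays left out changed the differences. The median correlation of the 45 pairs was 0.49 to 0.75 with an array left out, 0.68 on deviations from group means, 0.69 with probe sets averaged and 0.68 with median centring. The labels do not say whether same-numbered samples were handled together. Over all genes, deviations of same-numbered arrays correlated at 0.032, 0.039, -0.053 and -0.061, and those of differently numbered arrays at -0.084 to 0.136. Most genes were above background on no array, so these values cannot settle a pairing. With the replicate block the median correlation was 0.78 and 0 genes passed. With 4 arrays a group, limits remain: the interval of Ier2 ran from 0.49 to 1.88 times the control level.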

Other observations

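Messengers with AU-rich elements, the class that Zfp36 is known to bind, were measured for 14 genes with their binding proteins, of which 8 had lower and 6 higher means in a3a6KO (median -0.06, 0 passing in limma). Of the 14, 2 had r above 0.7 with the mean of the 10 early genes (median r 0.22), against 2.79% of all named genes other than the 10. Tnf, the cytokine gene best known as a Zfp36 target, stood at 7.41, 7.62, 4.56 and 5.26 in a3a6KO 1 to 4, against 8.38, 8.02, 7.54 and 6.48 in control 1 to 4, a difference of -1.39 (SE 0.712). Tnf was above background on 5 of 8 arrays, all but a3a6KO 3, a3a6KO 4 and control 4, where its values were lowest. Its order of arrays was like that of the 10 early genes (r = 0.93 with their mean, 0.87 without a3a6KO 3). Il6, another such cytokine gene, did not share that order, at 7.81, 5.43, 8.18 and 5.41 in a3a6KO and 5.39, 3.35, 4.22 and 9.08 in control (difference 1.1975, SE 1.186), and was above background on 3 arrays. Zfp36l1, a relative of Zfp36, differed by -0.20 (SE 0.176) and Il1b by -0.44 (SE 0.399), and Il1b was above background on no array.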
